A study of Nezara viridula with 24 samples.

Results

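The genes described here had higher read counts in insects fed green bean than in insects fed corn along the whole of the midgut that was sampled, in the southern green stink bug Nezara viridula. Of 201329 genes of the assembly, 8 met the rule that defines them. Levels are given in CPM, the count of a gene per 1000000 counts of its library, with the isoforms of a gene summed. In each of the midgut sections M1, M2 and M3 the median of the 3 green bean libraries had to be at least 2 times the median of the 3 corn libraries and to reach 5 CPM. In M1 and M2 the lowest green bean library also had to lie above the highest corn library. The genes were chosen by these measured midgut values, so the diet difference in the midgut is given below as a description and is not a test.

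The files do not pair identifiers with gene names, and the 8 genes are therefore called by their assembly identifiers, with no function assigned. The 8 genes are TRINITY_DN168_c0_g1, TRINITY_DN2646_c0_g1, TRINITY_DN236_c0_g1, TRINITY_DN854_c0_g2, TRINITY_DN1404_c0_g2, TRINITY_DN396_c0_g1, TRINITY_DN109485_c0_g1 and TRINITY_DN9728_c3_g1. CPM takes no account of transcript length, so levels are compared between libraries for a given gene and not between genes.

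Nezara viridula is a piercing and sucking bug that feeds on many crops, among them legumes and maize. Its salivary glands make the enzymes and other proteins that are injected into the plant, and liquefied food is then drawn into the midgut. The midgut of such bugs is divided along its length into regions that look different and take up, digest and absorb the meal in turn. Plants differ in sugars, proteins, enzyme inhibitors and defence compounds, and gut cells of plant-feeding insects are known to change their digestive and detoxifying enzymes with the food plant.

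Polyadenylated RNA was sequenced from 24 libraries, 3 for each combination of a diet, corn or green bean, with a tissue, salivary glands, M1, M2 or M3. All groups were adults kept under the same conditions, left on their diet for 24 h after the final moult, and each library pooled tissue from 4 to 10 individuals. Sex, strain and the plant parts offered are not given in the labels used here. Whether the pools of a group were raised apart is not stated, and p-values therefore measure the spread between these pools only. In whole tissue fewer cells of a type and less RNA per cell cannot be told apart.

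Library totals ran from 17819164 to 33954593 counts. The corn libraries numbered 1 stood apart. In the midgut they had a count for 94335 to 122664 genes, against 38270 to 59476 in corn replicates 2 and 3 and 64667 to 93477 on green bean. In the glands corn replicate 1 had a count for 79903 genes, corn replicates 2 and 3 for 34833 to 37040, and the green bean libraries for 64901 to 73741. Results that rest on these libraries are given with and without them.

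TRINITY_DN168_c0_g1 was higher on green bean in each section, with wide differences among the green bean libraries. In M1 it was at 871, 304 and 212 CPM in green bean replicates 1, 2 and 3, and at 108, 20.2 and 36.1 CPM in corn replicates 1, 2 and 3. In M2 it was at 857, 378 and 305 CPM on green bean, and at 119, 112 and 56.9 CPM on corn. In M3 it was at 265, 499 and 146.5 CPM on green bean, and at 79.8, 147.5 and 59.8 CPM on corn. The diets were apart in M1 and M2, while in M3 the lowest green bean library lay just under the highest corn library. The ratio of medians was 8.41 in M1, 3.38 in M2 and 3.32 in M3.

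TRINITY_DN2646_c0_g1 was the gene with the steepest profile along the gut on both diets. In M1 it was at 548, 220 and 499 CPM on green bean, and at 213, 39.8 and 90.8 CPM on corn. In M2 it was at 62.4, 36.3 and 94.5 CPM on green bean, and at 9.71, 7.82 and 6.58 CPM on corn. In M3 it was at 7.99, 6.86 and 6.33 CPM on green bean, and at 1.70, 5.62 and 1.14 CPM on corn. Every green bean library was above every corn library of its section, by a narrow margin in M1, where corn replicate 1 came near green bean replicate 2, and in M3, where corn replicate 2 came near all green bean libraries. The ratios of medians were 5.50, 7.99 and 4.03 in M1, M2 and M3.

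TRINITY_DN236_c0_g1 was at 33.7 to 62.2 CPM in all sections on green bean, and on corn it was higher in M3 than in M2 without overlap. On green bean it was at 35.0, 59.5 and 34.7 CPM in M1, 33.7, 55.1 and 39.6 CPM in M2, and 39.1, 62.2 and 60.9 CPM in M3. On corn it was at 30.5, 10.3 and 13.1 CPM in M1, 13.1, 9.35 and 8.49 CPM in M2, and 23.2, 20.1 and 16.96 CPM in M3. No diet groups overlapped in any section, but corn replicate 1 in M1 lay close to the lower green bean libraries. The ratios of medians were 2.66, 4.24 and 3.02.

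TRINITY_DN854_c0_g2 differed most between diets in M2. On green bean it was at 40.0, 24.1 and 30.5 CPM in M1, 27.3, 17.7 and 19.9 CPM in M2, and 18.9, 52.7 and 17.9 CPM in M3. On corn it was at 18.7, 9.76 and 12.8 CPM in M1, 5.24, 2.83 and 1.96 CPM in M2, and 20.2, 4.78 and 5.64 CPM in M3. The diets were apart in M1 and M2 and overlapped in M3, where corn replicate 1 was above the green bean replicates 1 and 3. The ratios of medians were 2.38, 7.02 and 3.35.

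The other 4 genes lay near the floor of 5 CPM, and the diets overlapped in M3 in 3 of them. TRINITY_DN1404_c0_g2 ranged on green bean from 7.69 to 10.7 CPM in M1, 13.9 to 17.9 in M2 and 5.09 to 15.4 in M3, and on corn from 0.659 to 6.46, 0.470 to 7.90 and 4.90 to 11.2 CPM. TRINITY_DN396_c0_g1 ranged on green bean from 9.26 to 15.2 CPM in M1, 5.12 to 10.8 in M2 and 7.57 to 23.1 in M3, and on corn from 2.84 to 6.11, 0.707 to 2.53 and 2.79 to 9.58 CPM. For both genes the highest corn value in every section was that of replicate 1. TRINITY_DN9728_c3_g1 ranged on green bean from 9.60 to 12.7 CPM in M1, 6.44 to 9.14 in M2 and 7.03 to 9.71 in M3, and on corn from 0.371 to 7.84, 0.196 to 2.35 and 1.70 to 11.3 CPM. Its highest corn values were also from replicate 1 in every section, and the M3 value was above all green bean libraries. TRINITY_DN109485_c0_g1 did not overlap between diets in any section, ranging on green bean from 7.88 to 16.1 CPM in M1, 6.75 to 6.76 in M2 and 8.22 to 17.3 in M3, and on corn from 1.73 to 6.89, 1.61 to 3.88 and 4.13 to 6.14 CPM. None of the 8 genes was without counts in all corn libraries.

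**Figure D1:**
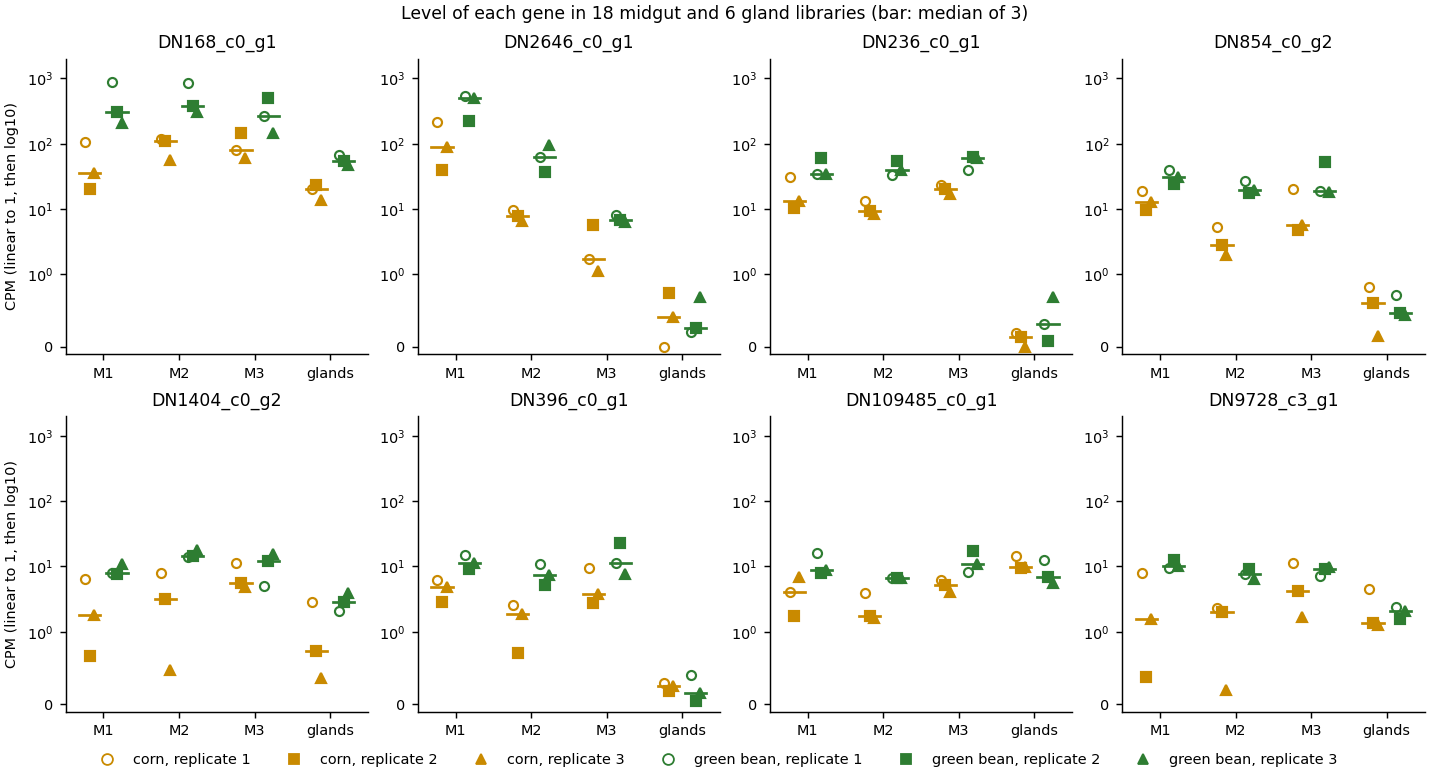
Level of each of the 8 genes in CPM (linear up to 1, then log10) in every library of M1, M2, M3 and the salivary glands, with corn in ochre, green bean in green and a bar at the median of 3. In M1 and M2 all green points lie above all ochre points, as the rule asks, while in M3 they mix for 5 of the 8 genes, and the open ochre circle, corn replicate 1, is the highest corn point in 21 of 24 combinations of a gene with a section.

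The ratio in M3 was met by few genes, and most genes that met the ratio in all sections lacked separation in M1. Of 6373 genes with a green bean median of at least 5 CPM in all sections, 1393 had a ratio of medians of at least 2 in M1, 1304 in M2 and 132 in M3, or 2.07%. The lowest green bean library was above the highest corn library for 25.3% of these genes in M1, 30.3% in M2 and 2.26% in M3. All 8 members met this separation in M1 and M2 because the rule requires it, and 3 of them met it in M3, where it was not required, although the ratio in M3 was. The ratio reached 2 in all sections for 78 genes. Of the 70 that were not members, 56 lacked separation in M1 alone and 14 lacked it in both M1 and M2.

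The genes nearest to the limit had ordinary values on either side of it. Just inside were TRINITY_DN109485_c0_g1, whose smallest ratio was 2.11, and TRINITY_DN9728_c3_g1, whose smallest was 2.16, both in M3. Just outside was TRINITY_DN385_c1_g1, with ratios of 3.91 in M1, 2.24 in M2 and 1.94 in M3. The next outside was TRINITY_DN960_c1_g1, with ratios of 1.90, 2.80 and 2.61 and green bean medians of 304, 928 and 181 CPM.

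With the diets exchanged, the same rule found 12 genes that were higher on corn in all sections. A count of 8 against 12 depended on the corn libraries used. Without corn replicate 1 in any section, 214 genes met the rule for green bean and 16 for corn. With corn replicate 1 as the only corn library, 11 genes met it for green bean and 71 for corn. TRINITY_DN168_c0_g1 and TRINITY_DN2646_c0_g1 were the 2 members found in both of these settings, and all 8 members were found without corn replicate 1. Leaving libraries out by itself makes the separation easier to meet, and this part of the changes was not tested.

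Corn replicate 1 was the highest of the 3 corn libraries in 21 of the 24 combinations of a member with a section, against 61.8% of such combinations over the 6373 genes. It was the highest in all 3 sections for 5 of the 8 members and for 39.3% of the 6373 genes. Set against corn replicate 1 alone, the green bean median was at least 2 times higher for 3 members in M1, 6 in M2 and 3 in M3. Against corn replicate 2 alone this held for 8, 8 and 6 members, and against corn replicate 3 alone for 7, 8 and 8. The median ratio over the members was 1.73, 3.10 and 1.48 against replicate 1, 8.64, 4.42 and 2.18 against replicate 2, and 3.52, 8.07 and 3.47 against replicate 3. In M3 the ratio to corn replicate 1 was under 1 for TRINITY_DN854_c0_g2, at 0.936, and for TRINITY_DN9728_c3_g1, at 0.811. In M2 the ratio was above 1.7 for every member and every corn replicate, with a lowest value of 1.74.

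**Figure D2:**
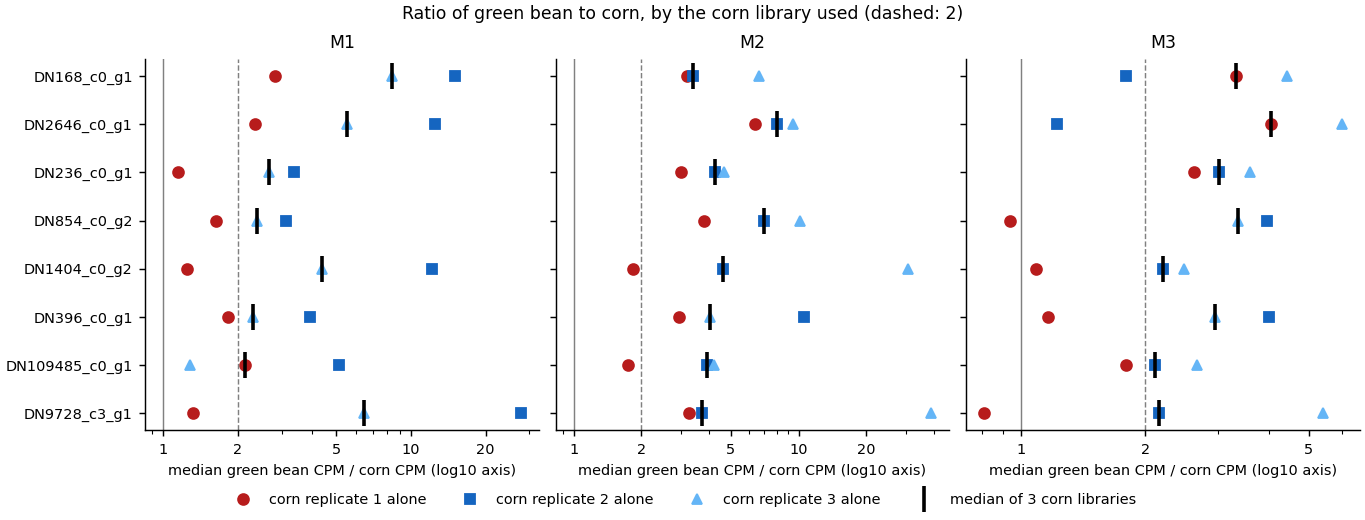
Ratio of the green bean median to corn in M1, M2 and M3 (log10 axis) for the 8 genes, with the corn value taken from replicate 1 (red circle), replicate 2 (dark blue square), replicate 3 (light blue triangle) or the median of the 3 (black bar). The dashed line marks a ratio of 2, and the red circles lie left of it for 5 genes in M1, 2 in M2 and 5 in M3.

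Leaving out single libraries also moved the count of genes that met the rule. Without corn M1 replicate 1, 70 genes met it. It was met by 14 genes without corn M3 replicate 1, 18 without green bean M1 replicate 2, 14 without green bean M1 replicate 3 and 16 without green bean M3 replicate 1. It was met by 4 genes without corn M1 replicate 2 and by 4 without corn M3 replicate 3. TRINITY_DN168_c0_g1 was a member in all 18 such sets and TRINITY_DN2646_c0_g1 in 17, while TRINITY_DN1404_c0_g2 was a member in 13 and TRINITY_DN9728_c3_g1 in 14.

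Scaling by column totals and by edgeR's TMM factors, which take out a shift shared by most genes, differed. Over the 6373 genes the median log2 ratio of green bean to corn was 0.57 in M1, 0.32 in M2 and -0.10 in M3 with column totals, and 0.08, 0.21 and 0.09 with TMM. With TMM the members' ratios ran from 1.95 to 5.19 in M1, 2.92 to 6.83 in M2 and 2.25 to 5.44 in M3, so that none turned. TMM scaling gave 12 genes for green bean, 6 of them members, and 11 for corn. TRINITY_DN236_c0_g1 was lost with an M1 ratio of 1.95, and TRINITY_DN109485_c0_g1 because its diets overlapped in M1. Under TMM the diets overlapped in M3 for TRINITY_DN1404_c0_g2 and not for the other members, whose M3 ratio the rule had required. The share of all genes without overlap was not computed under TMM, so this is a description only.

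The count model that was fitted to all genes gave fewer calls than the rule. In M1 edgeR's quasi-likelihood test called 0 members higher on green bean after Benjamini-Hochberg adjustment over 23008 genes, where 0.00869% of genes were called higher and 2094 genes had an unadjusted p under 0.05. In M2 it called 2 members, TRINITY_DN236_c0_g1 at a log2 fold change of 1.61 (SE 0.24, adjusted p 0.011366) and TRINITY_DN854_c0_g2 at 2.36 (SE 0.44, adjusted p 0.035038), where 0.161% of genes were called higher. In M3 it called 0 members, with 0.0% of genes called and 1815 genes at an unadjusted p under 0.05. All 8 members had positive log2 fold changes in each section, with medians of 1.16, 1.94 and 1.51 against 0.16, 0.18 and 0.00 over all genes. DESeq2 called 2 members in M1, 8 in M2 and 4 in M3, where it called 3.59%, 7.16% and 3.31% of 21243 genes higher. Over the 3 sections together, the 2 edgeR calls became 4 without corn M2 replicate 1 and 3 without corn M3 replicate 2. They became 1 without corn M1 replicate 3, corn M2 replicate 3 or green bean M2 replicate 1. They became 0 without corn M2 replicate 2, green bean M2 replicate 2 or green bean M2 replicate 3. Over all genes, 886 of 23008 were called higher in M2 without corn M2 replicate 1, and 3 to 17 in the other settings just named. The rule used this contrast, so these counts say nothing more about the members.

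Summed over the 8 genes, the level was 1543, 645 and 817 CPM on green bean in M1, against 394, 85.7 and 168 CPM on corn. In M2 the sums were 1020, 523 and 498 CPM on green bean and 163, 140 and 78.1 CPM on corn. In M3 they were 362, 682 and 275 CPM on green bean and 163, 196 and 98.1 CPM on corn. These sums were made up largely of TRINITY_DN168_c0_g1 and, in M1, of TRINITY_DN2646_c0_g1. The green bean sums were spread widely, with replicate 1 highest in M1 and M2 and replicate 2 highest in M3.

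**Figure D3:**
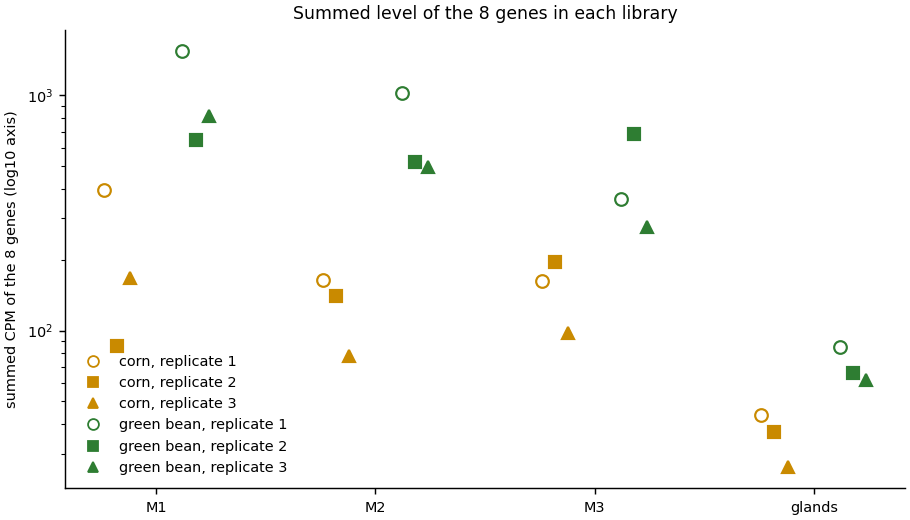
Summed CPM of the 8 genes (log10 axis) in each library, by tissue, with corn in ochre, green bean in green and a marker shape for each replicate number. The midgut sums run from 275 to 1543 CPM on green bean and from 78.1 to 394 CPM on corn, and the gland sums are lower on both diets.

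The salivary glands took no part in the choice of the genes. Of the 8 genes, 5 passed the filter on low counts there, and 3 did not. TRINITY_DN2646_c0_g1 was at 0.199, 0.258 and 0.686 CPM in the green bean glands and at 0, 0.741 and 0.409 CPM in the corn glands. TRINITY_DN236_c0_g1 was at no more than 0.686 CPM and TRINITY_DN396_c0_g1 at no more than 0.398 CPM in any gland library. No diet difference was detectable for these 3 genes at this depth.

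TRINITY_DN168_c0_g1 was the member with the clearest diet difference in the glands. It was at 66.4, 53.8 and 48.1 CPM in green bean replicates 1, 2 and 3, and at 20.4, 23.5 and 13.8 CPM in corn replicates 1, 2 and 3. The lowest green bean library was more than 2 times the highest corn library, and corn replicate 1 lay between the other corn libraries. The log2 fold change was 1.61 (SE 0.25), with an unadjusted p of 3.5e-04 and an adjusted p of 0.077 by edgeR's quasi-likelihood test over 12741 genes, which missed the threshold of 0.05. By p it was at rank 57 of the 12741 genes. Its adjusted p ranged from 2.3e-08 to 0.399 over 11 alternatives and passed in 2 of them, without the filter on low counts and with DESeq2. With DESeq2 it was 1.1e-05, and 1.45% of genes were called higher. Without the filter it was 2.3e-08 by edgeR, where 329 of 131160 genes were called higher, against 2 of 12741 with the filter. The median log2 fold change over all genes was 0.64 in that unfiltered fit and -0.02 with the filter.

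The other 4 genes that were tested in the glands showed no such separation. TRINITY_DN1404_c0_g2 was at 2.11, 2.83 and 3.87 CPM on green bean and at 2.90, 0.741 and 0.358 CPM on corn. Its log2 fold change of 1.32 (SE 0.64) had an edgeR adjusted p of 0.562. Its corn replicate 1 lay among the green bean values, and without that library the log2 fold change was 2.34, its highest over the alternatives. TRINITY_DN109485_c0_g1 was at 12.7, 6.83 and 5.57 CPM on green bean and at 14.5, 9.64 and 9.98 CPM on corn, with a log2 fold change of -0.34 (SE 0.32) and an edgeR adjusted p of 0.782. TRINITY_DN9728_c3_g1 was at 2.43, 1.55 and 2.10 CPM on green bean and at 4.54, 1.34 and 1.28 CPM on corn, with a log2 fold change of -0.07 (SE 0.47). TRINITY_DN854_c0_g2 was under 1 CPM in every gland library, with a log2 fold change of 0.17 (SE 0.63).

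By edgeR's quasi-likelihood test 0 of the 5 members tested were called in the glands, where 0.118% of the 12741 genes were called in either direction and 1301 had an unadjusted p under 0.05, and DESeq2 called 1 of the 5. The members' median log2 fold change was 0.17, against -0.02 over all genes, with 3 of 5 positive. The lowest green bean library was above the highest corn library for 1 of the 5, TRINITY_DN168_c0_g1, and for 4.19% of all genes tested. Corn replicate 1 stood apart in the glands as it did in the midgut. Without it edgeR also called 0 of the 5, where 22 of the 12741 genes were called higher and 35 lower. In that fit 3408 genes had an unadjusted p under 0.05.

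The midgut sections were compared over both diets together, 6 libraries against 6. The rule asks for 5 CPM on green bean in every section, so a gene confined to a single section could not be a member. It sets no condition on the difference between sections. It was applied to these same 18 libraries, however, so the section values of the members are not independent of their choice. The shares set beside them are over all genes tested and not over the 6373 past the floor. From M1 to M2, 4 of the 8 genes were called lower by edgeR's quasi-likelihood test, against 4.8% of 23008 genes. Of the 8 genes, 2 had a positive log2 fold change there. From M2 to M3, 1 of 8 was called lower against 4.69% of all genes, and from M1 to M3, 1 of 8 against 10.2%. No member was called higher in these fits. Over all genes, 1024, 1048 and 2571 of 23008 were called higher in the same comparisons, in that order. The members' median log2 fold change was -0.94 from M1 to M2, 0.61 from M2 to M3 and -0.21 from M1 to M3, against -0.08, 0.08 and 0.10 over all genes.

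TRINITY_DN2646_c0_g1 fell at each step along the gut. Its log2 fold change was -3.35 (SE 0.42, edgeR adjusted p 1.2e-04) from M1 to M2, -2.55 (SE 0.42, adjusted p 0.00116) from M2 to M3 and -5.90 (SE 0.48, adjusted p 7.9e-07) from M1 to M3. On green bean the median was 499 CPM in M1, 62.4 in M2 and 6.86 in M3, and on corn 90.8, 7.82 and 1.70 CPM, with no overlap between neighbouring sections on either diet. In the glands it was under 1 CPM. The falls from M1 to M2 and from M1 to M3 passed in all 26 alternatives, with the highest adjusted p at 0.022 and 0.00152. The fall from M2 to M3 passed in 25 of 26. In the corn libraries alone it was -1.99 with an adjusted p of 0.150, and in the green bean libraries alone -3.12 with an adjusted p of 0.0114.

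TRINITY_DN854_c0_g2 fell from M1 to M2 by 1.52 on the log2 scale (SE 0.30, edgeR adjusted p 0.00397). In the corn libraries alone the change was -2.37 (SE 0.43, adjusted p 0.0093), and in the green bean libraries alone -0.65 (SE 0.42, adjusted p 0.598), and the difference between diets was not tested. Its call was also lost with corn replicate 1 as the only corn library, at -1.39 and an adjusted p of 0.137, and it passed in 24 of 26 alternatives with adjusted p from 1.1e-05 to 0.598. From M1 to M3 its change of -0.74 (SE 0.29) missed the threshold with an adjusted p of 0.0966. There it passed without corn M3 replicate 1, at -1.05 and 0.0118, and without green bean M3 replicate 2, at -1.01 and 0.0196. It also passed without corn replicate 1 in every section, at -1.05 and 0.0222, and with DESeq2 on all libraries.

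The falls of the other 2 genes that were called lower from M1 to M2 were less secure. TRINITY_DN396_c0_g1 fell by 1.21 on the log2 scale (SE 0.34, edgeR adjusted p 0.0388) and passed in 11 of 26 alternatives, with adjusted p from 0.00362 to 0.581. Leaving out any of corn M1 replicates 1, 2 and 3, corn M2 replicates 1 and 2, corn M3 replicate 3, green bean M1 replicates 1 and 3 or green bean M2 replicates 2 and 3 lost the call, at adjusted p from 0.051 to 0.100. TRINITY_DN109485_c0_g1 fell by 1.01 (SE 0.28, adjusted p 0.0339) and passed in 15 of 26, with adjusted p from 0.00288 to 0.483. Without corn M1 replicate 3, corn M2 replicate 2 or 3, green bean M1 replicate 1, or green bean M2 replicate 1, 2 or 3 its adjusted p was 0.0664 to 0.0975.

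TRINITY_DN236_c0_g1 changed by -0.54 from M1 to M2 (SE 0.17) and just missed the threshold, with an edgeR adjusted p of 0.0561. It passed without green bean M1 replicate 3, at 0.034, and without green bean M2 replicate 2, at 0.0398, and also with RLE size factors, at 0.0319, and with DESeq2, at 0.00372. From M2 to M3 TRINITY_DN396_c0_g1 had a log2 fold change of 0.99 (SE 0.34, adjusted p 0.0944) and passed without green bean M3 replicate 3, at 0.0491, and with DESeq2, at 0.0285. There TRINITY_DN109485_c0_g1 had 0.79 (SE 0.28, adjusted p 0.102) and passed without corn M1 replicate 3, at 0.0247, and with DESeq2, at 0.0377. TRINITY_DN168_c0_g1 and TRINITY_DN1404_c0_g2 had log2 fold changes between -0.58 and 0.47 in the 3 comparisons, with standard errors from 0.41 to 0.44. TRINITY_DN9728_c3_g1 had -0.87 from M1 to M2 (SE 0.51), 0.81 from M2 to M3 (SE 0.51) and -0.06 from M1 to M3 (SE 0.50). For these last 3 genes no comparison passed with all libraries. With corn replicate 1 as the only corn library, TRINITY_DN9728_c3_g1 passed from M1 to M2, at -1.31 and an adjusted p of 0.00752, and from M2 to M3, at 1.13 and 0.0115.

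**Figure D4:**
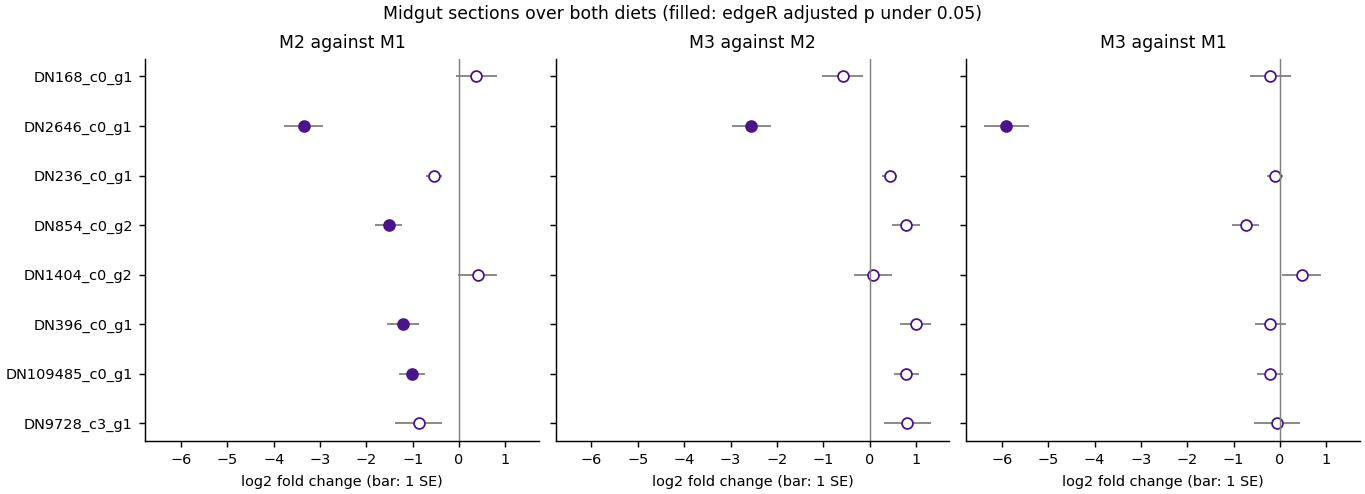
Log2 fold change between midgut sections over both diets, with a bar of 1 standard error, for the 8 genes. Filled points have an edgeR adjusted p under 0.05: there are 4 from M1 to M2, 1 from M2 to M3 and 1 from M1 to M3, and TRINITY_DN2646_c0_g1 is filled in every panel.

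The 8 genes hold 32 assembled isoforms in all, with a median of 4 per gene against 3 for the 6373 genes past the floor. A single isoform was assembled for 1 of the 8, TRINITY_DN109485_c0_g1, and for 23.9% of the 6373. Isoforms of a gene share sequence, and how the quantifier divided shared reads among them is uncertain, so the following values describe that division and were not tested. TRINITY_DN168_c0_g1 and TRINITY_DN236_c0_g1 are shown because their isoform make-up differed between diets, a choice made after the values were seen.

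In TRINITY_DN168_c0_g1 the isoforms ending in i4 and i9 were near 0 in most corn libraries. Isoform i4 was at 464, 131 and 15.4 CPM on green bean in M1 and at 0.940, 2.84 and 0.159 CPM on corn. In M2 it was at 386, 103 and 24.8 CPM on green bean and at 3.88, 0 and 22.5 CPM on corn, and in M3 at 70.9, 147.5 and 2.10 CPM on green bean and at 0.814, 0.0442 and 0 CPM on corn. Green bean replicate 3 was far under the other green bean libraries in every section, and corn M2 replicate 3 lay just under the lowest green bean library of M2. Isoform i9 was at 194, 68.5 and 9.64 CPM on green bean in M1 and 0.588, 2.88 and 0.1195 CPM on corn. In M2 its diets overlapped, at 133, 40.3 and 13.9 CPM on green bean and 3.30, 0 and 17.6 CPM on corn. In M3 it was at 44.9, 79.2 and 1.24 CPM on green bean and 0.703, 0.0442 and 0 CPM on corn, again without overlap.

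Isoforms i7 and i8 of the same gene were present on both diets. Isoform i7 was at 102, 49.4 and 104 CPM on green bean in M1 and at 57.5, 6.96 and 19.8 CPM on corn, and its ranges overlapped between the diets. In M2 it was at 192, 125 and 150 CPM on green bean and at 53.1, 58.7 and 6.93 CPM on corn, and in M3 at 84.6, 144 and 87.7 CPM on green bean and at 38.0, 73.3 and 29.0 CPM on corn. In M2 and M3 the diets did not overlap for this isoform. The high total of green bean replicate 1 in M1 and M2 was thus made mostly of i4 and i9, and the total of green bean replicate 3 mostly of i7 and i8.

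In TRINITY_DN236_c0_g1 the diet difference lay mostly in isoforms other than i2, and most clearly so in M2. Isoform i2 was at 20.2, 12.1 and 15.7 CPM on green bean and at 18.5, 10.3 and 8.36 CPM on corn in M1. In M3 it was at 15.4, 10.4 and 13.8 CPM on green bean and at 11.2, 20.1 and 16.96 CPM on corn, and in both sections its diet ranges overlapped. Isoform i1 was at 17.6, 20.4 and 18.3 CPM on green bean in M2 and was listed at 0 in all 3 corn libraries of M2. In M3 i1 was at 14.3, 21.3 and 16.0 CPM on green bean, at 8.21 CPM in corn replicate 1, and at 0 in corn replicates 2 and 3. Isoform i5 was likewise listed at 0 in all corn libraries of M2 and in corn replicates 2 and 3 of M3, with 4.58, 11.9 and 7.19 CPM on green bean in M2. Corn replicate 1 was thus the corn library of M3 in which these isoforms had counts.

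**Figure D5:**
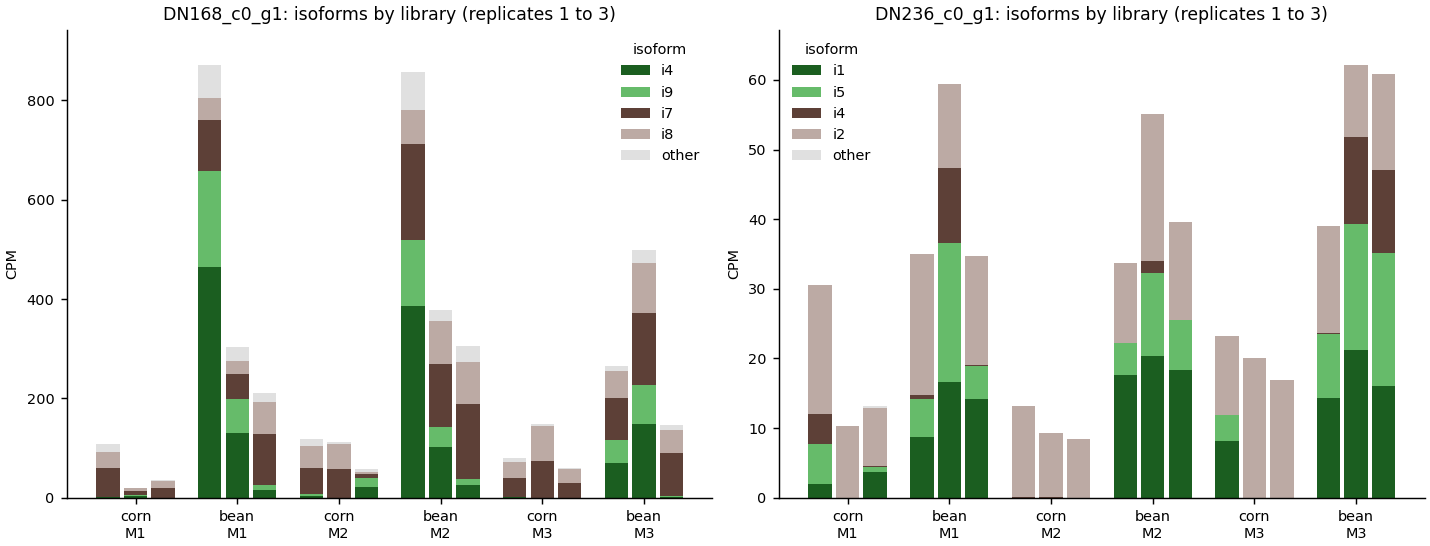
Level in CPM of the isoforms of TRINITY_DN168_c0_g1 and TRINITY_DN236_c0_g1 in each midgut library, stacked, with replicates 1, 2 and 3 from left to right in each group. The green parts, i4 and i9 on the left and i1 and i5 on the right, are large in most green bean libraries and small or absent in most corn libraries, while the lightest brown part, i8 on the left and i2 on the right, is present on both diets.

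The other genes with several isoforms differed among themselves in how far their make-up changed. In TRINITY_DN2646_c0_g1 the isoform i2 held a median of 52.3% of the gene's counts on green bean and 47.2% on corn in M1. Its isoforms had ratios of medians above 1 in every section, in M1 from 1.99 for i8 to 6.09 for i2. The diets overlapped in M1 for both i8 and i2. For i2 the lowest green bean library there was at 113 CPM and the highest corn library at 119 CPM. In TRINITY_DN854_c0_g2 the isoform i1 held 88.2% on green bean and 95.8% on corn in M1. In TRINITY_DN1404_c0_g2 isoforms pointed in opposite directions. In M3 its isoform i2 had a median of 1.77 CPM on green bean and 3.45 CPM on corn, and its isoform i5 had 4.36 and 1.15 CPM. These ranges overlapped between diets. Its isoform i3 was separated in M3, at 2.06 to 5.63 CPM on green bean and 0 to 1.46 CPM on corn. In M2 the isoform i5 held a median of 35.4% of the gene's counts on green bean and 3.75% on corn. In TRINITY_DN9728_c3_g1 the isoform i2 held a median of 74.8% in M2 on green bean and 38.5% on corn, and i3 held 25.2% and 57.7%. Its isoform i1, at medians under 1 CPM on both diets, had a ratio of 0.448 in M1 and 0.720 in M3, with overlapping diets. Its corn shares rest on few counts.

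Genes assembled into the same component as a member, which share sequence with it in the assembly, did not all follow it. TRINITY_DN1404_c0_g3 had medians of 462, 458 and 840 CPM on green bean in M1, M2 and M3 and of 473, 1011 and 1389 CPM on corn, so that its ratio was 0.977, 0.453 and 0.605 where TRINITY_DN1404_c0_g2 had 4.38, 4.61 and 2.21. TRINITY_DN396_c0_g2 was near 0 in M1 and M2 and in M3 had medians of 30.5 CPM on green bean and 84.0 CPM on corn, a ratio of 0.363 against 2.96 for TRINITY_DN396_c0_g1. The 3 other genes of the component of TRINITY_DN854_c0_g2 had ratios of 1.66 to 2.47 in M1, 1.17 to 3.37 in M2 and 0.796 to 1.33 in M3. Reads may be divided uncertainly between such genes. TRINITY_DN168_c0_g1, TRINITY_DN109485_c0_g1 and TRINITY_DN9728_c3_g1 were the only genes of their components, and the single further gene in the components of TRINITY_DN2646_c0_g1 and TRINITY_DN236_c0_g1 did not reach 1 CPM.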

How the data were processed

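The deposited tables hold estimated counts per transcript, which the authors gave as whole numbers, for 298322 transcripts. Salmon 0.12, Trim Galore 0.4.4 and DESeq2 1.20.0 are listed in the submitters' processing notes without a role or order, the steps of the assembly being not given in the sources used here. Identifiers have the form that Trinity, a transcript assembler, writes, and isoforms were summed to 201329 genes by dropping the isoform number. Every column was matched to a labelled library. CPM is the count divided by the column total of the same table.

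Tests used edgeR 4.0.16 in R 4.3.3 on the summed counts, rounded where needed: filterByExpr by group, TMM factors, glmQLFit (robust) with a mean per group and two-sided glmQLFTest, with Benjamini-Hochberg adjustment over all genes of the table and calls at an adjusted p under 0.05. The standard error is the size of the log2 fold change divided by the square root of F. All 18 midgut libraries shared a fit, and the 6 gland libraries had their own. On simulated data the gland fit recovered 15.3% of 111 genes changed by 1 on the log2 scale and 88.8% of 89 changed by 2, and the fit of M3 against M1 recovered 40.7% of 108 and 100% of 92. The simulation gave every gene the same dispersion, had no outlying corn replicate 1, and changed only genes above a minimum level. These rates check that the fits run as intended and are not the power for the members in the real libraries.

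Same-numbered libraries of M1 and M3 of a diet deviated together (correlation 0.108 to 0.888, over 0.1 in 6 of 6 pairs). Libraries with different numbers ran from negative values, as for corn M1 replicate 1 with M3 replicate 3 (-0.567), to positive ones. Corn M1 replicate 2 had 0.416 with M3 replicate 3 and 0.108 with M3 replicate 2. Green bean M1 replicate 2 had 0.674 with M3 replicate 3 and 0.577 with M3 replicate 2. These values do not settle whether the numbers pair the samples, and the labels do not say. A block for diet and number changed no call of a member from M1 to M3. For same-numbered M1 and M2 libraries the correlation was over 0.1 in 5 of 6 pairs, and for M2 with M3 in 5 of 6. For the diets it was so in 0 of 9 midgut pairs and 1 of 3 gland pairs. The numbers were not taken as pairs in the main fits.

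The members, the lists and the tests were chosen with earlier results of these data known. Named genes were the 2 members with the highest green bean level, the 2 with the lowest summed corn count, the 2 genes on each side of the ratio limit, the 2 with the smallest p in each direction in the glands, the called members with the largest change between sections, and the 2 members with the most isoforms and with isoforms in opposite directions. With 8 members, the others were named as well so that each is accounted for. Lists of digestive or detoxification genes could not be applied without gene names. The alternatives were other scaling, filters, floors, ratios and tools, each library left out, the block, and the corn replicates left out.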

Additional observations from a re-analysis of the deposited data

How the results depend on the processing

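Against 8 genes that met the rule, a ratio of 3 left 2, a ratio of 1.5 gave 45, a floor of 10 CPM 3, a floor of 1 CPM 28, separation in M3 as well 3, means in place of medians 51, transcripts in place of genes 131, and corn without replicate 1 gave 214; leaving out single libraries gave 4 to 70. In the glands, 1 member was called without the filter, where 329 of 131160 genes were called higher, and 1 with DESeq2, where 185 of 12719 were. With a library left out 0 were called, and the members' median ranged from -0.23 to 0.57. Over all genes, 0 to 22 of 12741 were then called higher and 1 to 35 lower. From M1 to M2, against 4 members called, 2 were called without the filter, 1 in green bean alone and 2 in corn alone. With a library left out, 2 to 4 were called. Genes called lower there numbered 1105 of 23008 in the main fit and 1150 of 193770 without the filter. They numbered 302 of 23008 in green bean alone, 536 in corn alone and 855 to 1202 with a library left out. From M2 to M3, against 1 called lower, 2 were called with the replicate block, 0 in corn alone and 3 with DESeq2. With a library left out, 1 to 2 were called. Every call beyond TRINITY_DN2646_c0_g1 there was a rise. Genes called higher there numbered 1048 of 23008 in the main fit, 1526 with the block and 1684 of 21243 with DESeq2. With a library left out they numbered 753 to 1103. Genes called lower there numbered 1080 of 23008 in the main fit and 268 in corn alone. From M1 to M3, against 1, 2 were called without corn replicate 1, 2 with DESeq2 and 1 to 2 with a library left out. Genes called lower there numbered 2354 of 23008 in the main fit, 2418 without corn replicate 1 and 3120 of 21243 with DESeq2. With a library left out they numbered 2041 to 2525. For the diet in all midgut sections, alternatives chosen after seeing the data were examined. The 2 calls became 8 without the filter, 6 without corn replicate 1, 14 with DESeq2 and 0 to 4 with a library left out. Calls over all genes changed as well. Genes called higher in M1, M2 and M3 numbered 2, 37 and 0 of 23008 in the main fit. They numbered 2404, 254 and 7945 of 193770 without the filter. Without corn replicate 1 they numbered 648, 2489 and 0 of 23008. With DESeq2 they numbered 762, 1521 and 704 of 21243. TRINITY_DN9728_c3_g1, near 0 in the glands, changed sign with the replicate block (0.062) and with a library left out (-0.32 to 0.57). The block added TRINITY_DN236_c0_g1 from M1 to M2 (5 called) and TRINITY_DN396_c0_g1 from M2 to M3, and called 0 members in the glands. Over all genes it called 1479 of 23008 lower from M1 to M2, and 1 of 12741 lower in the glands. For the diet it called 3, where 11, 89 and 3 of 23008 genes were called higher in M1, M2 and M3. The cause of these changes was not tested beyond their construction. Genes near 5 CPM rest on low counts in single corn libraries, down to 5 counts for TRINITY_DN9728_c3_g1, which limits their precision.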
